A study of Mus musculus with 12 samples.

Results

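Endothelial and mural cell genes were followed in whole hearts of mice with 1 or both copies of hexokinase II. The 35 genes, of 24061 gene symbols listed, were chosen by symbol as known markers: 13 of blood endothelium, 5 of lymphatic endothelium, 3 of endocardium and veins, 7 of smooth muscle and 7 of pericytes. RNA was measured in hearts of male C57BL/6J mice on chow, aged between 2 and 4 months, 6 of genotype HKII+/- (heterozygous for hexokinase II) and 6 of genotype HKII+/+ (wild type). The question was whether the levels of these genes differ with the dose of Hk2, the gene of hexokinase II. Replicate 11 of HKII+/- and replicate 13 of HKII+/+ carry a mark of the submitters as potential outliers, so results are given for all 12 libraries and for the 10 unmarked ones. The labels give the allele by genotype name only and mention no pooling of animals and no sorting of cells.

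Blood capillaries of the heart are tubes of endothelial cells wrapped by pericytes, while arteries and arterioles carry layers of smooth muscle whose actin and myosin set their width. Endothelial cells sense VEGF and angiopoietins through receptor tyrosine kinases, hold together by cadherin junctions, and recruit mural cells through PDGF-B and Notch signals. Lymphatic vessels drain tissue fluid and depend on VEGF-C, and the endocardium is the endothelium that lines the heart chambers. In whole tissue, fewer cells of a type and less RNA per cell cannot be told apart.

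Deposited counts summed to between 17263209 and 51556592 per library, of which the 35 genes held 0.387% to 0.523%. Values are CPM, the count of a gene per 1000000 counts of the library total after TMM scaling, a factor per library that was 0.787 in replicate 11, 0.76 in replicate 13 and between 0.992 and 1.09 in the others. Without the marked libraries, HKII+/- hearts averaged 292 ± 40.6 CPM of Hk2 and HKII+/+ hearts 509 ± 29.7 CPM (SD, n = 5 each). The library labelled HKII+/- replicate 11 had 568 CPM of Hk2, above the 256 to 354 CPM of unmarked HKII+/- libraries. It lay inside the range of 471 to 653 CPM in HKII+/+ libraries only because that range includes replicate 13, its highest value and itself marked. In replicate 11, 84.9% of all 14107 genes tested lay outside the range of the unmarked libraries. Its label was kept as given, and whether this Hk2 level bears on the label was not tested. All 35 genes passed the filter on low counts, with the lowest value of any at 1.18 CPM, so markers of each of the 5 classes were present in every heart.

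No endothelial or mural gene passed the test for a difference between the genotypes. With 12 libraries, edgeR's quasi-likelihood test with Benjamini-Hochberg adjustment called 0 of the 35 genes at an adjusted p below 0.05, beside 0% of 14107 genes tested. At an unadjusted p below 0.05 it held 0 of the 35, beside 0.262% of all genes. With the 10 unmarked libraries it again called 0 of 35, beside 0.00707% of 14139 genes (1 gene, Hk2), and 0 of 35 stood at an unadjusted p below 0.05, beside 2.8% of all genes. DESeq2 called 0 of the 35 and held 0 at an unadjusted p below 0.05 in either set of libraries. Over all genes it called 0 of 14107 with 12 libraries and 3 of 14139 with 10. At an unadjusted p below 0.05 it held 64 and 351 of them. In none of the 35 did the genotypes stand fully apart, beside 0.0213% of genes with 12 libraries and 0.474% with 10.

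The precision behind these zeros differed widely. In the 10 unmarked libraries, the 95% intervals of the 13 blood endothelial genes all lay between -0.22 and 0.34 on the log2 scale (HKII+/- over HKII+/+), which is 0.859-fold to 1.27-fold. Those of the 7 pericyte genes lay between -0.36 and 0.39, and those of the 5 lymphatic genes between -0.31 and 0.44. Those of the 7 smooth muscle genes reached from -1.41 to 0.62 (0.376-fold to 1.54-fold), both bounds being those of Cnn1. With all 12 libraries the intervals of the blood endothelial genes widened to between -1.27 and 1.33. The median standard error over the 35 genes was 0.29 with 12 libraries and 0.10 with 10, and over all tested genes 0.25 and 0.09. Class medians of the log2 fold change with 10 libraries were 0.04 (blood endothelium), 0.03 (lymphatic), 0.06 (endocardium and vein), -0.29 (smooth muscle) and 0.03 (pericyte), beside -0.005 over all genes tested. With 12 libraries they were 0.01, 0.01, 0.23, -0.10 and -0.04 in the same order, beside -0.001. The fitted value of Myh11 turned from -0.29 (SE 0.23, 95% interval -0.78 to 0.2) with 10 libraries to 0.43 (SE 0.50, 95% interval -0.65 to 1.5) with 12, and that of Plvap from -0.06 (SE 0.27, 95% interval -0.65 to 0.53) to 0.39 (SE 0.40, 95% interval -0.47 to 1.25), with each interval across 0.

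**Figure D1:**
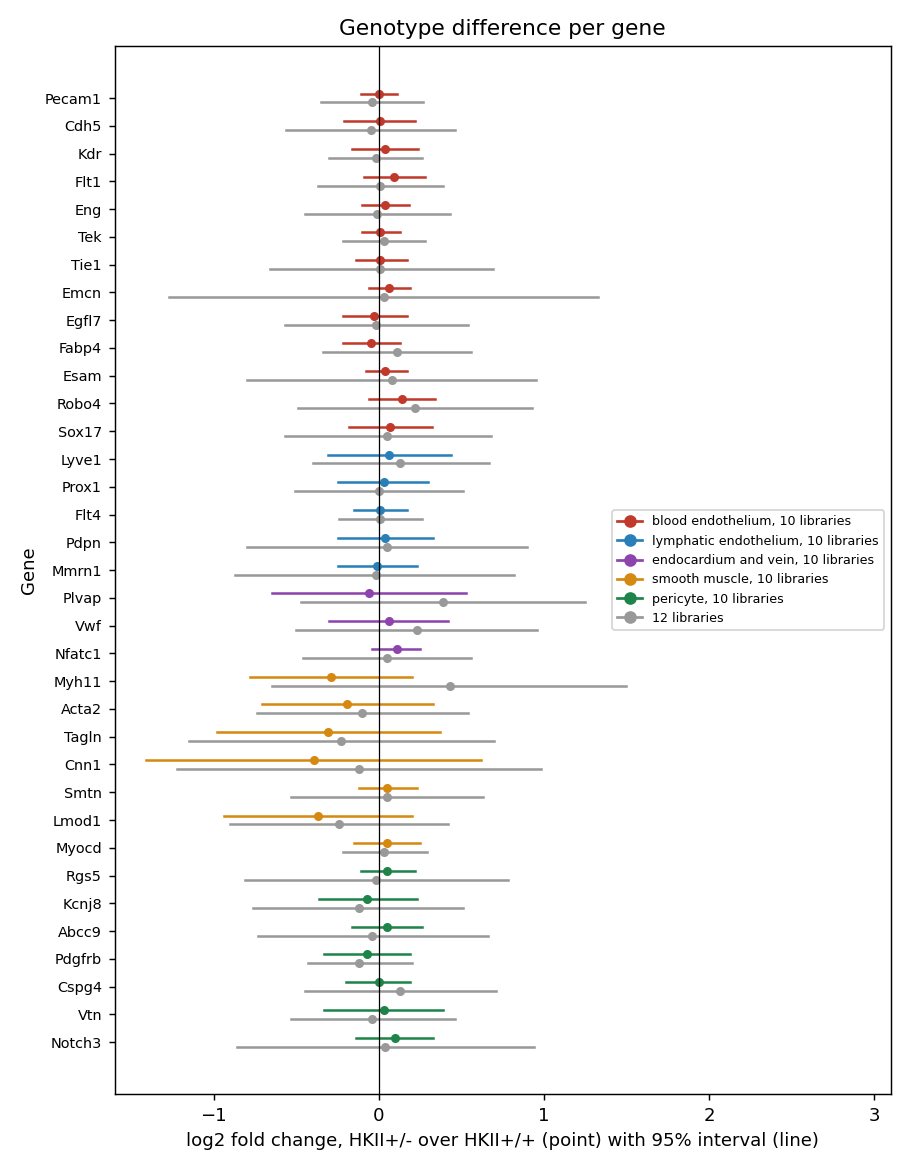
Log2 fold change of each gene, HKII+/- over HKII+/+ (points), with its 95% interval (lines), from edgeR fits to the 10 unmarked libraries (coloured by class) and to all 12 libraries (grey). Every interval crosses 0; those of Emcn reach from -0.06 to 0.19 with 10 libraries and from -1.27 to 1.33 with 12.

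Blood endothelial genes were at nearly the same level in every unmarked heart, ranging from 1.17-fold (Pecam1) to 1.53-fold (Sox17) between the lowest and the highest heart. Per-library values below run in the order of replicates 12, 16, 19, 20 and 22 for HKII+/- and 14, 15, 17, 18 and 21 for HKII+/+. Fabp4, the fatty acid binding protein of capillary endothelium and fat cells, measured 346, 406, 440.2, 412 and 433 CPM in HKII+/- hearts, against 481, 367, 401, 428 and 427 CPM in HKII+/+ hearts. The ranges overlap over most of their length, and its log2 fold change came to -0.05 (SE 0.08, 95% interval -0.22 to 0.13). Fabp4 was the highest of the class per length, at 92.3 CPM per kb of merged exon (exons of all its transcripts joined, 4489 bases, against 896 bases in its longest coding transcript). Eng, endoglin, a co-receptor for BMP9 and TGF-beta that is the next highest at 81.4 CPM per kb, measured 332, 329, 360.1, 333 and 317 CPM in HKII+/- hearts, against 363, 326, 303, 339 and 292 CPM in HKII+/+ hearts. The log2 fold change came to 0.04 (SE 0.06, 95% interval -0.1 to 0.18).

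The angiopoietin receptor Tek (Tie2), whose level varied least of the class over all 12 libraries, measured 76.6, 83.7, 90.6, 85.1 and 81 CPM in HKII+/- hearts, against 88.3, 77.1, 83.1, 82.9 and 81.5 CPM in HKII+/+ hearts. No unmarked library left the span of 76.6 to 90.6 CPM, and its log2 fold change came to 0.01 (SE 0.05, 95% interval -0.1 to 0.13). Emcn, endomucin, a sialomucin on capillary and venous endothelium, measured 41.1, 39.5, 36, 37.1 and 39.4 CPM in HKII+/- hearts, against 35.1, 37.8, 37.6, 40.7 and 34.2 CPM in HKII+/+ hearts. The 10 values again interleave, with a log2 fold change of 0.06 (SE 0.06, 95% interval -0.06 to 0.19). The other 9 members ranged in mean level from 19.1 CPM (Sox17, a transcription factor of arterial endothelium) to 295 CPM (Kdr, the main VEGF receptor), with log2 fold changes between -0.03 and 0.14. The highest of these was that of Robo4, a Roundabout-family receptor of endothelium, at 0.14 (SE 0.09, 95% interval -0.06 to 0.34). Pecam1, the adhesion molecule CD31, was the steadiest of all 35 genes, with a coefficient of variation (CV, SD over mean) of 4.51% and a log2 fold change of 0 (SE 0.05, 95% interval -0.11 to 0.11). Robo4 and Pecam1, like Tie1, Esam, Kcnj8, Notch3, Tagln, Cnn1 and Lmod1 below, were chosen after their values were seen.

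Of the lymphatic genes, Lyve1, a hyaluronan receptor also carried by resident macrophages, was highest per length at 11.9 CPM per kb. It measured 38.8, 42.9, 30.5, 43.1 and 22.9 CPM in HKII+/- hearts, against 32.9, 38.5, 34.9, 24.8 and 38.8 CPM in HKII+/+ hearts. HKII+/- replicate 22, HKII+/+ replicate 18 and HKII+/- replicate 19 were the 3 lowest, the 2 genotypes overlapped, and its log2 fold change came to 0.06 (SE 0.17, 95% interval -0.31 to 0.44). Summed macrophage markers in the unmarked libraries ranged from 161 to 221 CPM in HKII+/- and from 171 to 219.9 CPM in HKII+/+ hearts, and their part in the Lyve1 level was not tested.

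Flt4, the VEGF-C receptor VEGFR3, which is also present on some capillaries, measured 38.5, 34.9, 42.9, 35.3 and 41.2 CPM in HKII+/- hearts, against 38.7, 39.5, 37.4, 42.6 and 33.6 CPM in HKII+/+ hearts, with a log2 fold change of 0.01 (SE 0.07, 95% interval -0.15 to 0.17). All 10 values fell between 33.6 and 42.9 CPM, in proportion the narrowest span of the class. Mmrn1, the matrix protein multimerin 1, measured 9.78, 11.2, 9.4, 11.7 and 9.48 CPM in HKII+/- hearts, against 9.49, 9.72, 8.85, 10.9 and 13 CPM in HKII+/+ hearts, with a log2 fold change of -0.01 (SE 0.11, 95% interval -0.25 to 0.23). Prox1, the transcription factor that specifies lymphatic endothelium and is also present in heart muscle cells, averaged 37.4 ± 3.49 CPM in HKII+/- hearts, against 36.7 ± 7.59 CPM in HKII+/+ hearts (SD, n = 5 each). Podoplanin, Pdpn, averaged 5.57 ± 0.989 CPM in HKII+/- hearts, against 5.39 ± 0.652 CPM in HKII+/+ hearts, the lowest level of the 35 genes. Both overlapped between the genotypes.

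The 3 endocardial and venous markers behaved unevenly. Plvap, which forms the diaphragms of fenestrated and venous endothelium, measured 34.7, 34.6, 17.3, 36.5 and 14.3 CPM in HKII+/- hearts, against 39.5, 33.7, 24.9, 24.4 and 20 CPM in HKII+/+ hearts, at a mean of 14.1 CPM per kb. HKII+/- replicates 22 and 19 were the lowest of the 10, other HKII+/- hearts were among the highest, and its log2 fold change came to -0.06 (SE 0.27, 95% interval -0.65 to 0.53). Vwf, von Willebrand factor, stored in endothelium of veins and larger vessels, measured 199.7, 186, 184, 221 and 119 CPM in HKII+/- hearts, against 203, 208, 163, 127 and 173 CPM in HKII+/+ hearts, with a log2 fold change of 0.06 (SE 0.16, 95% interval -0.3 to 0.42). Its lowest values came from HKII+/- replicate 22 and HKII+/+ replicate 18. Nfatc1, the transcription factor of endocardium and valves, was steady at 31.6, 29, 37, 33.8 and 34.9 CPM in HKII+/- hearts, against 29.9, 29.2, 30.5, 32.3 and 32.7 CPM in HKII+/+ hearts. It had the smallest unadjusted p of the 35 genes with 10 libraries, 0.131 (adjusted p of 1 in edgeR's quasi-likelihood test), and a log2 fold change of 0.11 (SE 0.07, 95% interval -0.04 to 0.25).

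Smooth muscle genes split into a group that varied strongly between hearts and a pair that did not. Myh11, the smooth muscle myosin heavy chain, measured 141, 125, 74.3, 157 and 76.3 CPM in HKII+/- hearts, against 186, 149, 148, 97.6 and 119 CPM in HKII+/+ hearts. The 3 lowest were HKII+/- replicates 19 and 22 and HKII+/+ replicate 18, the genotypes overlapped, and its log2 fold change came to -0.29 (SE 0.23, 95% interval -0.78 to 0.2). Acta2, smooth muscle actin and the highest of the class at 70.6 CPM per kb, measured 184, 158, 106, 182 and 93.5 CPM in HKII+/- hearts, against 225, 189, 182, 99 and 129.8 CPM in HKII+/+ hearts. The same 3 hearts were lowest, and its log2 fold change came to -0.19 (SE 0.24, 95% interval -0.71 to 0.33).

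Transgelin, Tagln, an actin-binding protein, measured 84.4, 72.5, 38.7, 104 and 36.2 CPM in HKII+/- hearts, against 117, 97.3, 86.4, 46 and 68 CPM in HKII+/+ hearts. Calponin, Cnn1, which inhibits the myosin ATPase of smooth muscle, measured 13.7, 13.6, 4.36, 16.1 and 2.7 CPM in HKII+/- hearts, against 18.9, 15.9, 15.3, 4.91 and 10.5 CPM in HKII+/+ hearts. Cnn1 had the highest CV of the 35 genes (49.1%), a 6.99-fold range over the 10 hearts, and a log2 fold change of -0.39 (SE 0.46, 95% interval -1.41 to 0.62). Leiomodin 1, Lmod1, an actin nucleator of smooth muscle, measured 11.5, 11.1, 5.14, 11.8 and 5.44 CPM in HKII+/- hearts, against 15.3, 12.5, 12.1, 7.5 and 10.2 CPM in HKII+/+ hearts. In each of these 3 genes, replicates 18, 19 and 22 were the lowest.

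Smtn, smoothelin, did not follow them: it measured 241, 217, 236, 246 and 229.9 CPM in HKII+/- hearts, against 253, 217, 238, 238 and 182 CPM in HKII+/+ hearts. Its CV was 8.77%, its level 52.5 CPM per kb, and its lowest value that of HKII+/+ replicate 21. Myocd, myocardin, the coactivator of serum response factor that is present in heart muscle as well as smooth muscle, measured 91.1, 84.3, 70.4, 82.8 and 86 CPM in HKII+/- hearts, against 72.6, 81.2, 75.3, 74.3 and 97.2 CPM in HKII+/+ hearts, with a CV of 10.5%. Log2 fold changes were 0.05 (SE 0.08, 95% interval -0.12 to 0.23) for Smtn and 0.05 (SE 0.09, 95% interval -0.15 to 0.25) for Myocd. Thus 5 of 7 smooth muscle genes had replicates 18, 19 and 22 as their 3 lowest of 10, as did 2 of 5 lymphatic genes (Lyve1 and Pdpn), 0 of 13 blood endothelial, 0 of 3 endocardial and venous and 0 of 7 pericyte genes, beside 5.2% of all 14107 genes.

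**Figure D2:**
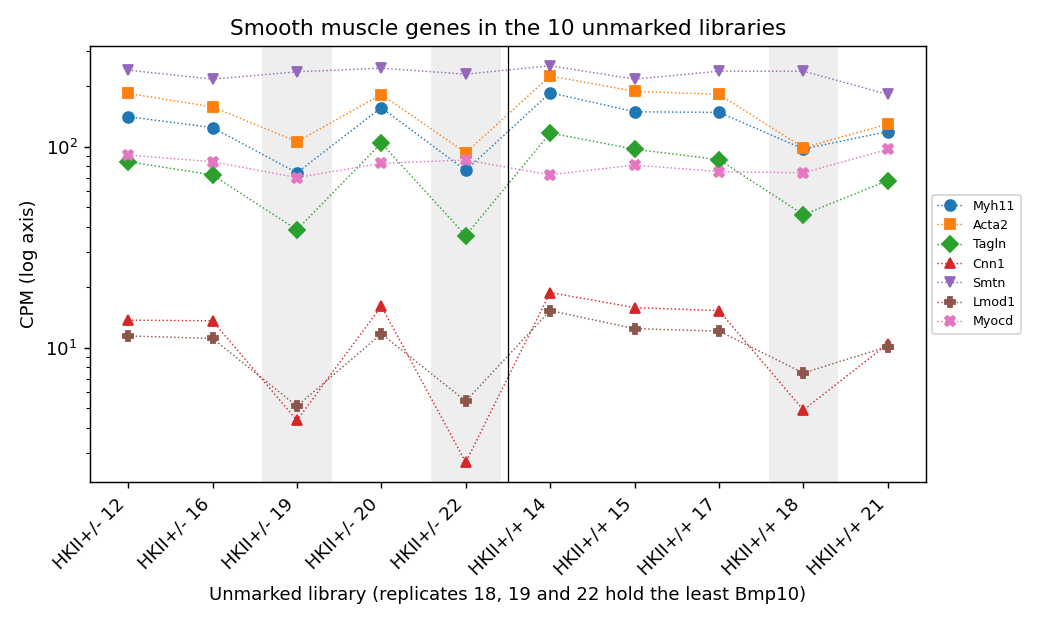
CPM (log axis) of the 7 smooth muscle genes in the 10 unmarked libraries, HKII+/- left of the line and HKII+/+ right of it. Replicates 19, 22 and 18 (shaded) are the 3 lowest for Myh11, Acta2, Tagln, Cnn1 and Lmod1, while Smtn stays between 182 and 253 CPM and Myocd between 70.4 and 97.2 CPM.

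Those 3 hearts also stood apart in Bmp10, a ligand made by atrial muscle. Bmp10 measured 204, 181, 0.145, 201 and 0.0196 CPM in HKII+/- hearts, against 195, 188, 194, 0 and 129.8 CPM in HKII+/+ hearts, so that it was nearly absent from replicates 19, 22 and 18. The sum of 5 atrial markers was 316 CPM in replicate 19 and 433 CPM in replicate 22, within a range of 316 to 6835 CPM in unmarked HKII+/- and 2361 to 5916 CPM in unmarked HKII+/+ hearts. In replicate 18 it was 4115 CPM, inside the HKII+/+ range. Among the unmarked hearts, summed markers of elastic great vessel matrix ranged from 195 to 335 CPM in HKII+/- and from 219 to 439 CPM in HKII+/+ hearts, lowest in replicates 22 and 18 of their genotypes. Summed adipocyte markers of the unmarked hearts ranged from 1.41 to 209 CPM in HKII+/- and from 22.7 to 262 CPM in HKII+/+ hearts, with replicates 22 (1.41 CPM) and 19 (3.83 CPM) the lowest HKII+/- and replicate 18 the lowest unmarked HKII+/+ heart. The part of atrial tissue, great vessels or fat in the smooth muscle values was not tested. Of the 3 hearts 2 are HKII+/- and 1 is HKII+/+. The class median log2 fold change of smooth muscle was -0.29 with 10 libraries and -0.07 without these 3 as well, a setting chosen after seeing the data.

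Pericyte genes ranged 1.28-fold (Rgs5) to 1.96-fold (Vtn) over the 10 unmarked hearts. HKII+/+ replicate 21 was the lowest for 5 of the 7 (Kcnj8, Pdgfrb, Cspg4, Vtn and Notch3), while HKII+/- replicate 20 was lowest for Abcc9 and HKII+/+ replicate 15 for Rgs5. A low place of replicate 21 was not particular to pericyte genes. It was also the lowest for Cdh5, Kdr, Eng and Emcn of blood endothelium, for Flt4 and for Smtn. The share over all genes was not counted. Abcc9, which encodes the SUR2 subunit of ATP-sensitive potassium channels in mural cells and heart muscle, was highest at 54.3 CPM per kb and measured 424, 449, 527, 379.5 and 533 CPM in HKII+/- hearts, against 448, 451, 504, 405 and 427 CPM in HKII+/+ hearts. The log2 fold change came to 0.05 (SE 0.10, 95% interval -0.16 to 0.26). Rgs5, a regulator of G-protein signalling typical of pericytes, stood at 49.7 CPM per kb and measured 241, 227, 245, 198 and 237 CPM in HKII+/- hearts, against 244, 192, 234, 218 and 221 CPM in HKII+/+ hearts. All 10 hearts lay between 192 and 245 CPM, with a log2 fold change of 0.05 (SE 0.08, 95% interval -0.11 to 0.22).

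Pdgfrb, the receptor through which PDGF-B recruits pericytes, measured 86.4, 103, 116, 88.5 and 104 CPM in HKII+/- hearts, against 124, 101, 117, 103 and 77.6 CPM in HKII+/+ hearts, with a log2 fold change of -0.07 (SE 0.12, 95% interval -0.33 to 0.19). The lowest and the highest of the 10 were both HKII+/+ hearts, replicates 21 and 14. Kcnj8 (the pore subunit that pairs with SUR2), Cspg4 (the proteoglycan NG2), Vtn (vitronectin) and Notch3 (the Notch receptor of mural cells) averaged 38.9, 49, 22.4 and 108 CPM in HKII+/- and 40.7, 49, 21.9 and 101 CPM in HKII+/+ hearts (n = 5 each). Their log2 fold changes lay between -0.07 and 0.10, and none passed the test.

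Steadiness was then compared between the classes, as the CV of CPM over the 10 unmarked libraries, a description with no test. The median CV was 9.19% in blood endothelium, 13.4% in pericyte, 14.5% in lymphatic, 19% in endocardial and venous and 29.2% in smooth muscle genes, beside 9.86% over all tested genes. A CV also depends on the number of counts, for which the classes were not matched. Pdpn, whose CV is the lymphatic median, had 89 to 254 counts per unmarked library, against 4420 to 12269 for Pecam1. Of the members, 7 of 13 blood endothelial genes and 1 in each other class (Flt4, Nfatc1, Smtn and Rgs5) were steadier than the median gene. Without replicates 18, 19 and 22 the median was 15.1% in smooth muscle and 10.7% in endocardial and venous genes. It was 12.1% in pericyte, 11.5% in lymphatic and 7.1% in blood endothelial genes, beside 9.19% over all tested genes. These libraries were left out after being seen as the lowest for most smooth muscle genes, so a fall in that class was built in. The mean of a class over its members ranged 1.19-fold over the 10 libraries in blood endothelium, 1.21-fold in lymphatic endothelium, 1.43-fold in pericytes, 1.66-fold in endocardium and veins and 2.31-fold in smooth muscle. The range of a mean also depends on the number of genes averaged, which differs between the classes.

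**Figure D3:**
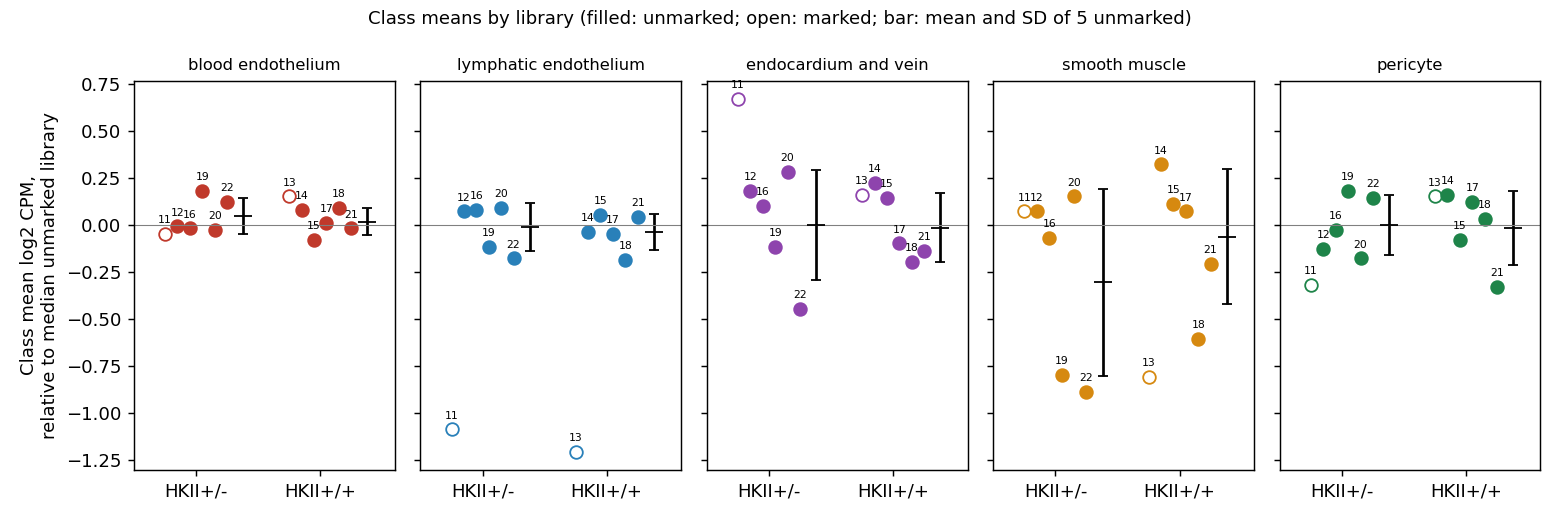
Mean log2 CPM of each class in each library, relative to the median of the unmarked libraries, for HKII+/- and HKII+/+ hearts with replicate numbers. Filled points are unmarked libraries, open points the marked ones, and bars the mean and SD of the 5 unmarked libraries of a genotype. Smooth muscle sits at -0.89 in replicate 22, -0.80 in replicate 19 and -0.61 in replicate 18, while blood endothelium stays between -0.08 and 0.18.

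A difference between 2 class means within a library does not depend on its scaling factor. Smooth muscle minus blood endothelium averaged -1.28 ± 0.59 in HKII+/- and -1 ± 0.38 in HKII+/+ hearts (log2, SD, n = 5 each). It was -1.93 in replicate 22, -1.91 in replicate 19 and -1.62 in replicate 18, and between -1.12 and -0.68 in the other unmarked hearts. Pericyte minus blood endothelium averaged -0.53 ± 0.08 in HKII+/- and -0.52 ± 0.17 in HKII+/+ hearts, with no library below -0.80 or above -0.37.

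In the marked libraries, genes of a single cell type lay on opposite sides of their usual levels. Of the 35 genes, 14 lay above and 16 below the range of the 10 unmarked libraries in the library labelled HKII+/- replicate 11, and 14 above and 17 below it in HKII+/+ replicate 13. On the same side in both libraries lay 27 genes, and 0 lay on opposite sides. Among all 14107 genes, 84.9% lay outside that range in replicate 11 and 79.5% in replicate 13, with 70.1% on the same side in both and 2.14% on opposite sides. Of the 13 blood endothelial genes, 6 lay above and 6 below in replicate 11, and 7 above and 6 below in replicate 13. Their class mean sat at -0.05 in replicate 11 and 0.15 in replicate 13 (log2, relative to the median unmarked library), inside the range of -0.08 to 0.18 of the unmarked libraries.

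**Figure D4:**
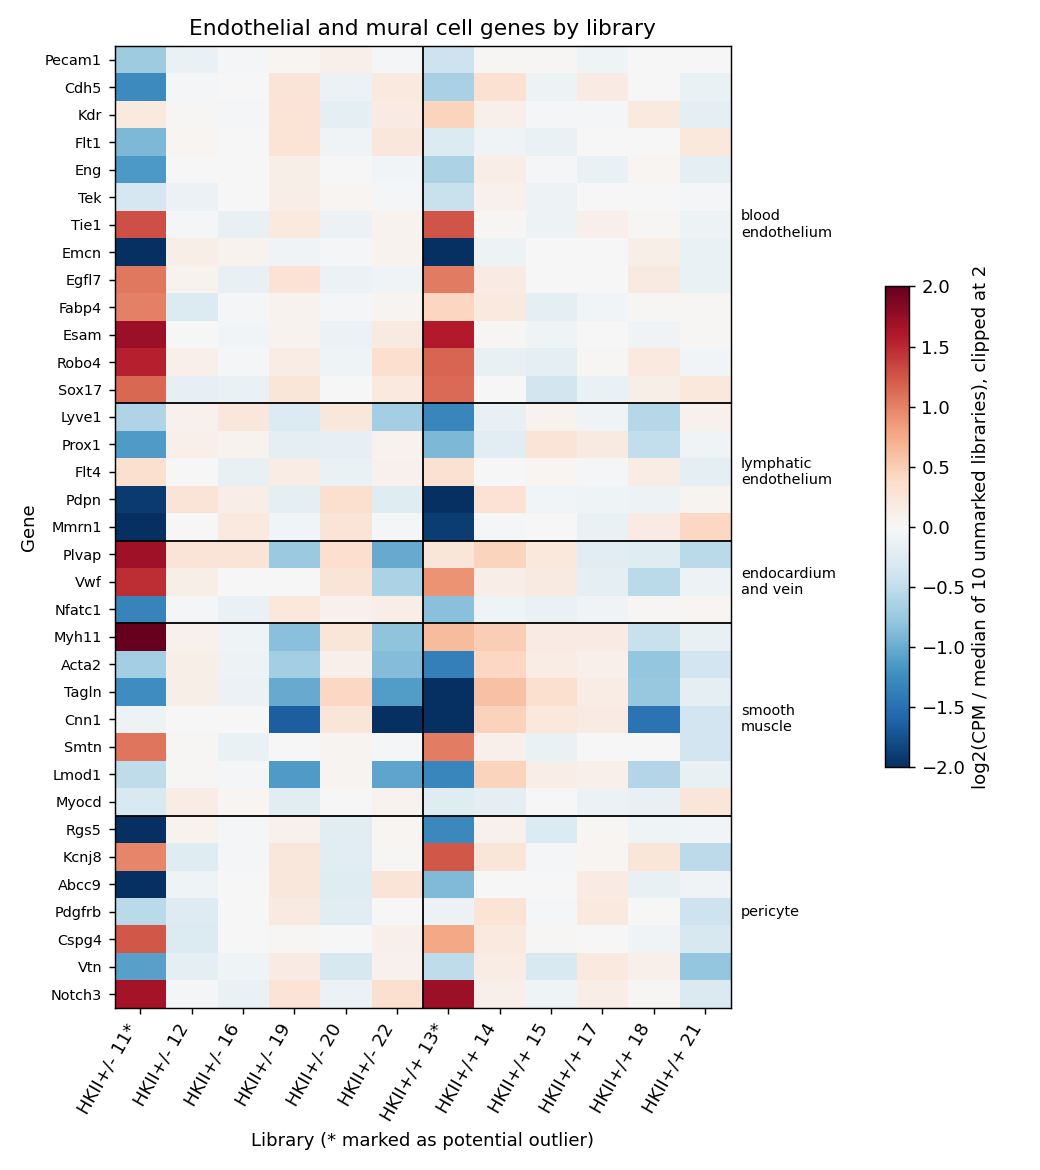
Log2 of CPM over the median of the 10 unmarked libraries (colour, clipped at 2 in either direction) for the 35 genes by class in the 6 HKII+/- and 6 HKII+/+ libraries, with marked libraries starred. Within each class, replicates 11 and 13 hold both raised and lowered genes, and replicates 19, 22 and 18 show lowered Myh11, Acta2, Tagln, Cnn1 and Lmod1.

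Emcn was the most displaced member, at 1.66 CPM in the library labelled HKII+/- replicate 11 and 4.79 CPM in HKII+/+ replicate 13, 22.7-fold and 7.87-fold below the median of the unmarked libraries. Esam, an adhesion molecule of endothelial tight junctions, measured 257 CPM in the library labelled HKII+/- replicate 11 and 233 CPM in HKII+/+ replicate 13, 3.29-fold and 2.99-fold above its median. The count of Esam over that of Emcn, a ratio that needs no scaling factor, was 155 in replicate 11 and 48.7 in replicate 13, against 1.84 to 2.32 in the other hearts. Genes whose products work together parted likewise. Tie1 and Tek, the paired receptors of the angiopoietin pathway, stood in a count ratio of 6.95 in replicate 11 and 7.35 in replicate 13, against 2.01 to 2.41 in the others. For Kcnj8 over Abcc9, both subunits of a single channel and neighbours on chromosome 6 (142564837-142571614 and 142587862-142702315 in GRCm38, minus strand), the ratio was 0.754 and 0.388, against 0.0654 to 0.117.

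Mural genes showed the same split. Rgs5 stood at 40.6 and 94.1 CPM in replicates 11 and 13, both below the lowest unmarked value of 192 CPM, whereas Notch3 stood at 323 and 335 CPM, both above the highest of 128 CPM. Myh11 measured 645 CPM in the library labelled HKII+/- replicate 11 and 206 CPM in HKII+/+ replicate 13, the highest values of all 12 libraries, while Acta2 measured 106 CPM in the library labelled HKII+/- replicate 11 and 65.8 CPM in HKII+/+ replicate 13, and 65.8 CPM was the lowest of the 12. Of the endocardial and venous genes, Plvap measured 94.2 CPM in the library labelled HKII+/- replicate 11 and 34.1 CPM in HKII+/+ replicate 13, and Vwf 514 CPM in the library labelled HKII+/- replicate 11 and 343 CPM in HKII+/+ replicate 13. Markers of other cells were read in the same libraries. Of 8 fibroblast genes, 4 lay above the unmarked range in the library labelled HKII+/- replicate 11 and 4 below it, and in HKII+/+ replicate 13, 3 lay above and 4 below. Their sum of 12640 CPM in replicate 11 and 3952 CPM in replicate 13, against 1003 to 1708 CPM in the others, was carried by the collagen genes Col1a1, Col1a2 and Col3a1, while decorin, Dcn, measured 78 and 105 CPM, against 356 to 514 CPM in the others. Of 6 elastic matrix genes, 3 lay above and 2 below in replicate 11, and 1 above and 3 below in replicate 13, and elastin, Eln, made up 2108 of the 2336 CPM in replicate 11 and 488 of the 639 CPM in replicate 13. Of 6 adipocyte genes, 4 lay above and 0 below in replicate 11 (sum 1336 CPM), and 0 above and 1 below in replicate 13 (3.15 CPM). Of 10 lung epithelial genes, 8 lay above and 0 below in replicate 11 (sum 316 CPM), and 2 above and 0 below in replicate 13 (3.87 CPM). In replicate 11, Cyp2f2 gave 191 CPM, Wfdc2 29.35, Scgb1a1 20.9, Scgb3a2 20.1, Foxj1 19.35, Sftpa1 18 and Krt8 16.2 CPM. The surfactant gene Sftpc was at 0 in both marked libraries and at most 0.11 CPM in the unmarked ones. The part of these cells in the levels of Myh11, Vwf, Plvap and Fabp4 was not tested.

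The GC content of a gene's longest coding transcript was set beside these shifts, a description chosen after seeing the data. Across the 35 genes, the log2 shift of replicate 11 had a Pearson correlation of 0.63 and a Spearman correlation of 0.60 with GC content, and that of replicate 13 of 0.59 and 0.61. Across 13472 genes with a value, the same correlations were 0.63 and 0.64 in replicate 11 and 0.66 and 0.66 in replicate 13. In the unmarked libraries the Spearman correlation lay between -0.52 and 0.27 for the 35 genes and between -0.40 and 0.23 for all genes. Both lowest values were those of HKII+/+ replicate 21, the lowest heart for most pericyte genes. HKII+/- replicate 16 came next, at -0.44 for the 35 genes and -0.31 for all genes. The part of GC content in the pericyte values was not tested. Genes of a library share its depth and preparation and are not independent replicates. The 13 members above the range in both marked libraries had a median GC content of 56.5%, and the 14 below it in both of 49.3%. Fabp4 (40.3%, above in both) and Eng (57.4%, below in both) went against that order.

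**Figure D5:**
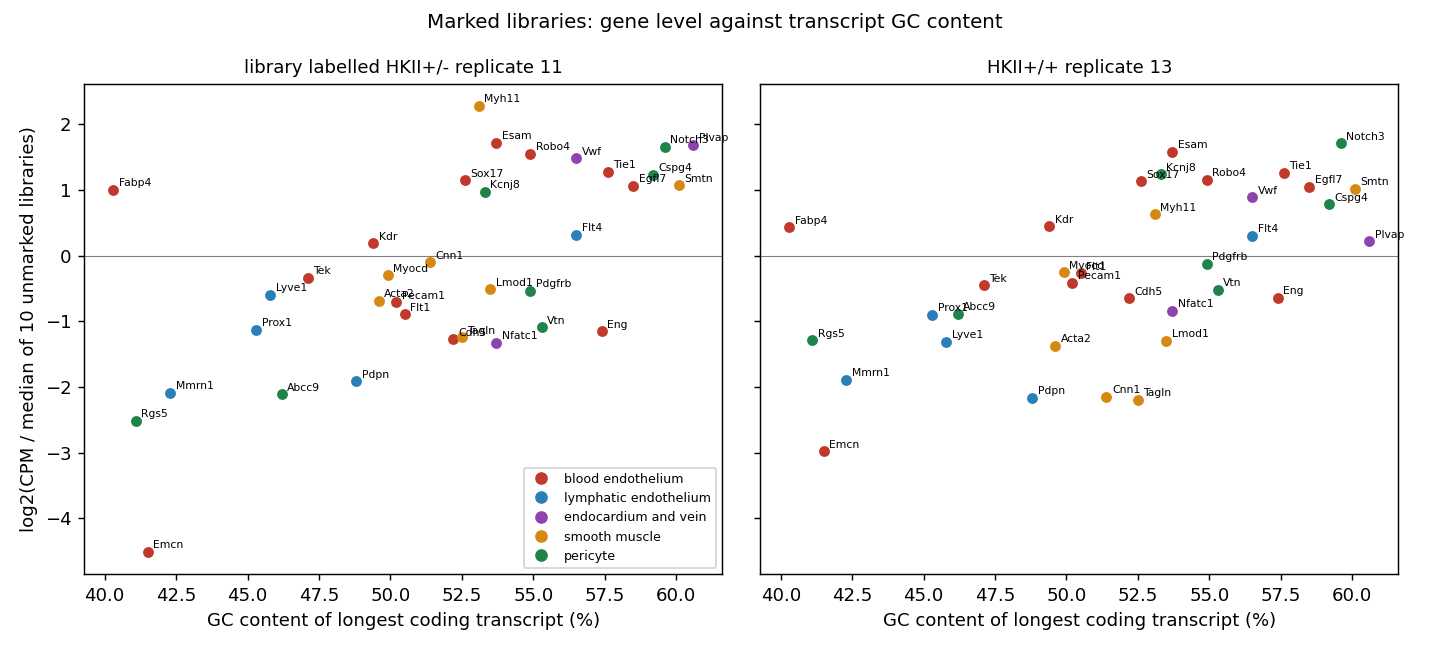
Log2 of CPM over the median of the 10 unmarked libraries against the GC content of the longest coding transcript (percent) for the 35 genes, coloured by class, in the library labelled HKII+/- replicate 11 and in HKII+/+ replicate 13. Emcn and Rgs5, at 41.5% and 41.1%, lie far below 0, and Notch3, Tie1 and Esam lie above it. Against that order, Fabp4 at 40.3% lies above 0 and Eng at 57.4% below it.

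Stretches of 90 coding bases from the middle of the coding sequence, in the annotated reference of GRCm38, are shown for the 2 lowest and 2 highest members by the mean of the log2(CPM + 0.5) shifts of replicates 11 and 13 so that the difference in composition can be seen. G and C are in capitals, and the window holds 38.9% G or C in Emcn (chromosome 3), 43.3% in Rgs5 (chromosome 1), 53.3% in Esam (chromosome 9) and 55.6% in Notch3 (chromosome 17).
Emcn: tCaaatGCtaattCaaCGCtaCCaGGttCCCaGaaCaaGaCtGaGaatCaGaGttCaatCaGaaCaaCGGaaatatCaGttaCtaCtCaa
Rgs5: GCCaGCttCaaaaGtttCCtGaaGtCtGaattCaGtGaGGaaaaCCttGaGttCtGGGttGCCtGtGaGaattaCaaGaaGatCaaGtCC
Esam: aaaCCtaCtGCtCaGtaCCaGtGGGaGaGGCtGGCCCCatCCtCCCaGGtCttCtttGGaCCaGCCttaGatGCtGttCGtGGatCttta
Notch3: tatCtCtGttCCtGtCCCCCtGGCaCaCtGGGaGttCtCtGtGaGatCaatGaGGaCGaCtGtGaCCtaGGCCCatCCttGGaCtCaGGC

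Genes that act on these vessels were examined as 15 lists of ligands, receptors, transcription factors and vessel-type markers, 131 genes of which 126 were tested. edgeR's quasi-likelihood test called 0 of them at an adjusted p below 0.05 in either set of libraries. With 12 libraries 0 stood at an unadjusted p below 0.05, and with 10 libraries 4 of 126 did, a share near the 2.8% of all genes. The 4 were all higher in HKII+/- hearts and all had an adjusted p of 1 in that test. Over all genes at an unadjusted p below 0.05, 214 were higher and 182 lower in HKII+/- hearts. Nrarp, a feedback inhibitor of Notch signalling, measured 25.5, 19.3, 23.9, 17.8 and 18.3 CPM in HKII+/- hearts, against 17.6, 16.8, 17.2, 17.3 and 16.2 CPM in HKII+/+ hearts, so the genotypes did not overlap (as in 0.474% of all genes), with a log2 fold change of 0.30 (SE 0.10). In the marked libraries it measured 13.7 CPM (HKII+/-) and 18.5 CPM (HKII+/+), and with them the genotypes overlapped. Pdgfb, the ligand of Pdgfrb, measured 80.4, 63.1, 93.9, 63.7 and 86.3 CPM in HKII+/- hearts, against 70.1, 55.5, 65.5, 73.5 and 59.8 CPM in HKII+/+ hearts, a log2 fold change of 0.26 (SE 0.12). Klf4, a flow-responsive transcription factor, gave 0.28 (SE 0.11) and Ctnnd1, the catenin p120 of cadherin junctions, 0.13 (SE 0.05).

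In the other lists only the most abundant gene is named, and it need not follow the rest of its list. Of 14 further contractile smooth muscle genes, the list of Tpm1, 10 were below 0 and 4 above with 10 libraries. Their median was -0.07, and over all genes 7457 of 14139 were below 0. Of 10 tested capillary genes, the list of Lpl, 5 were above 0 and 5 below. With 10 libraries and HKII+/- over HKII+/+, log2 fold changes were 0.08 (SE 0.08) for Vegfa, 0.07 (SE 0.39) for the Tek ligand Angpt1, -0.06 (SE 0.06) for the netrin receptor Unc5b and 0.00 (SE 0.05) for the venous ephrin receptor Ephb4. They were -0.05 (SE 0.10) for lipoprotein lipase, Lpl, 0.00 (SE 0.34) for the natriuretic peptide receptor Npr3, -0.07 (SE 0.07) for the integrin Itga9 and 0.05 (SE 0.09) for tropomyosin, Tpm1, which heart muscle also makes. For the ADP-ribosyltransferase Art3 the value was 0.00 (SE 0.05), and for endothelin-converting enzyme, Ece1, -0.02 (SE 0.08). Of these, Angpt1 and Npr3 varied most, and both were lowest among the unmarked hearts in replicates 22 and 19, at 19.1 and 25.9 CPM for Angpt1 and 25.8 and 35.1 CPM for Npr3. Notch4, the endothelial Notch receptor, chosen after its values were seen, had a log2 fold change of 0.04 (SE 0.06) and measured 623 and 473 CPM in marked replicates 11 and 13, against 68.4 to 83.3 CPM in the other 10 libraries.

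Promoters from 250 bases before to 50 bases after each start, from RefSeq, were searched on both strands for 3 motifs. These were the strict CArG box of serum response factor, CCWWWWWWGG (W is A or T), the ETS motif CCGGAAG and the SOX motif AACAAT. Variants of these letters were not searched. Of 4 smooth muscle genes in the promoter table (Acta2, Cnn1, Lmod1 and Smtn), 0 held the strict CArG box, beside 1.63% of 32851 promoter windows. Boxes with a G or C between CC and GG would be missed. The ETS motif was in 0 of 10 blood endothelial windows, beside 8.86% of all windows, and the SOX motif was in 2 of these 10, beside 10.7%. No match says only that these letters are not in this window.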

How the data were processed

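The authors deposited whole-number counts per gene symbol, 1 table per library with no normalisation. Per the submitters' processing notes, STAR 2.4.0 and featureCounts 1.4.4 were used with mm10 and GRCm38; per the labels' protocols, reads were single-end and 100 nt long. Neither the annotation release nor the strand setting is given in the sources used here. Libraries are taken as separate animals from their titles; otherwise p-values measure only the spread between samples. Replicates were checked for duplicate deposits, and the lowest chi-square per degree of freedom over 30 pairs was 7.03.

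Genotypes were compared with edgeR 4.0.16 in R 4.3.3 (TMM, filterByExpr with a minimum count of 10, quasi-likelihood test, Benjamini-Hochberg over all genes at 0.05), after checking the fits on simulated counts. Depth, 17263209 to 51556592 counts, limits the lowest genes. Alternatives were other scaling factors and filters, DESeq2 1.42.0, voom with quality weights (limma 3.58.1), a surrogate variable (sva 3.50.0), an atrial covariate and leaving out libraries. The 35 genes and all lists were chosen with earlier results of these data known. Printed per library were the 2 highest genes per kb of each class and those with the largest and smallest range over the 12 libraries; of each pathway list, genes at an unadjusted p below 0.05 or else the most abundant gene. Coordinates, merged exons, GC content (35 of 35 genes, 95.5% of tested genes) and coding stretches came from GENCODE vM21 (GRCm38) and promoters from RefSeq (GRCm38.p6). For GC, shifts are log2(CPM + 0.5).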

Additional observations from a re-analysis of the deposited data

Results flagged for a closer look

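Within each genotype, 36 of 70 groups of 6 libraries (35 genes, 2 genotypes) had a highest or lowest library separated from the rest by a larger part of the range than Dixon's 95% critical value for 6 samples, where chance flags about 1 in 20 groups. The library set apart was the one labelled HKII+/- replicate 11 in 22 of these and HKII+/+ replicate 13 in 14, and no other library in any; 23 genes were touched. These flags were not counted over all genes. Outside the range of the unmarked libraries lay 85.7% of the 35 genes in replicate 11 and 88.6% in replicate 13. Over all 14107 genes the shares were 84.9% and 79.5%, so such displacement was not particular to the 35.

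Among blood endothelial genes, Tie1 was highest at 455 and 447 CPM in replicates 11 and 13, Egfl7 at 201 and 199.6 CPM, Esam at 257 and 233 CPM, Robo4 at 163 and 124 CPM and Sox17 at 42.2 and 41.5 CPM. Pecam1 was lowest at 149 and 184 CPM and Emcn at 1.66 and 4.79 CPM. In replicate 11 alone, Cdh5 (112 CPM) and Eng (149 CPM) were lowest and Fabp4 (841 CPM) was highest. Of the lymphatic genes, Prox1 (17.4 CPM) and Mmrn1 (2.3 CPM) were lowest in replicate 11, and Pdpn (1.18 CPM) was lowest in replicate 13. Of the endocardial and venous genes, Nfatc1 was lowest at 12.7 and 17.9 CPM in replicates 11 and 13, and Plvap (94.2 CPM) and Vwf (514 CPM) were highest in replicate 11.

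Among mural genes, Smtn was highest at 497 and 481 CPM in replicates 11 and 13, Kcnj8 at 78.6 and 94.4 CPM, Cspg4 at 117 and 85.6 CPM and Notch3 at 323 and 335 CPM, and Rgs5 was lowest at 40.6 and 94.1 CPM. Myh11 (645 CPM) was highest and Abcc9 (104 CPM) lowest in replicate 11 alone.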

How the results depend on the processing

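Under every scaling, filter and tool tried, and without each library in turn, 0 of the 35 genes were called with 12 or with 10 libraries. At an unadjusted p below 0.05 stood 1 of the 35 in each of 3 settings of the 10 libraries. These were Lyve1 without replicates 18, 19 and 22 (beside 845 of 14416 genes), Nfatc1 without replicate 16 (595 of 14308) and Robo4 without replicate 18 (457 of 14318). Of 1365 log2 fold changes under alternatives, 230 in 32 genes had the other sign from the value reported, all of genes that were not called, and 1 moved by more than the spread between replicates (Abcc9, -0.13 without replicates 18, 19 and 22). With 12 libraries, leaving out 1 library at a time gave class medians of -0.10 to 0.18 in lymphatic and -0.10 to 0.46 in endocardial and venous genes, with 0.178 and -0.1 without HKII+/- replicate 11, and a median CV of 30.2% to 51.8% in endocardial and venous genes, lowest without that library. The 10-library smooth muscle median ran from -0.43 to -0.14 without 1 library, and was -0.04 with an atrial covariate. Over all genes, calls numbered 0 to 2 with 12 libraries and 0 to 3 with 10. No paired analysis was possible because the labels give no pairing of animals between the genotypes. Depth limits genes at few counts, of which Pdpn was the lowest.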
